A study of Mus musculus with 6 samples.

Results

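The 10 genes described here make the matrix and receptor proteins of connective tissue fibroblasts other than collagens: Dcn, Lum, Ogn, Fmod, Fbln1, Postn, Thbs2, Mfap4, Mfap5 and Pdgfra. They were taken by gene name from a list that was chosen with earlier results of these data known. All 10 were found among the 54532 genes of the count table and among the 17099 genes with enough reads to be tested. RNA-seq was performed on material that the labels call sciatic nerve, from mice at postnatal day 3, with 3 libraries of wild-type (WT) control mice and 3 of Dok6 mutant (KO) mice. The study read these libraries for pathways possibly downstream of Dok6, an adaptor protein of neurotrophin receptor signaling, and for genes linked to myelination.

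The mutants were Dok6-/- mice on a C57BL/6 background, obtained from Dok6 fl/fl mice and EIIA-cre, a Cre that is active in the early embryo and removes Dok6 exon 3 from every tissue. No effect can therefore be assigned to a single cell type. The controls were wild-type littermates, sexes were not distinguished, and the study's methods call the libraries of a genotype biological replicates.

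A peripheral nerve is wrapped and divided by connective tissue. Fibroblasts of the outer epineurium and of the endoneurium between the axons secrete collagen fibrils, small leucine-rich proteoglycans that bind those fibrils and set their thickness and spacing, and microfibrils that scaffold elastic fibers. Matricellular proteins such as periostin and the thrombospondins are secreted into the same matrix and bind cells and matrix molecules, and Pdgfra is the receptor through which platelet-derived growth factors act on fibroblasts and on oligodendrocyte precursors of the central nervous system.

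The 6 libraries held 17699904 to 18678170 counts each, so that 3 counts, the limit that a count of 0 allows, corresponded to 0.156 to 0.172 CPM. CPM here is a count scaled to 1000000 counts of its library, with TMM factors applied to the library totals, and this limit covers counting error only. Dok6 was at 17.8, 11.9 and 17.5 CPM in the controls and at 7.26, 5.78 and 7.15 CPM in the mutants. Its log2 fold change, mutant over control, was -1.23 (SE 0.20, adjusted p = 0.0118, quasi-likelihood test of edgeR, Benjamini-Hochberg over all tested genes). The label "sciatic nerve" went against part of the data: all 13 markers of central nervous system cells (neurons, astrocytes and, with Mog, oligodendrocytes) were at 1 CPM or more in every library, with a summed level of 2651 to 4044 CPM, whereas the 10 Schwann cell markers summed to 96.0 to 157.1 CPM in the controls and to 257.4 to 3888 CPM in the mutants. Sox10, also a marker of oligodendrocyte precursors, held 42.2 to 107.7 CPM of these control sums.

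Of the 10 genes, 5 were higher in the mutants (adjusted p below 0.05), namely Dcn, Lum, Ogn, Postn and Mfap5, against 8.62% of all tested genes. The 10 were chosen with earlier results of these data known, so their counts are no independent comparison with all tested genes. None of the 10 was lower, against 6.01% of all tested genes, and in 10 genes a count of 0 is near that share. The count of 0 also held at an unadjusted p under 0.05, where 8 were higher, and with DESeq2 and limma voom, which called 7 and 5 higher. Dcn, Lum, Ogn and Postn, 4 of the 10, also passed a log2 fold change of 2, as 1.08% of all tested genes did. The remaining 5 genes, Fmod, Fbln1, Pdgfra, Thbs2 and Mfap4, did not pass the test, and their control and mutant ranges overlapped. Every mutant library lay above every control library for the 5 called genes, and for 19.6% of all tested genes. The log2 fold change was above 0 for all 10 genes, and for 51.4% of all tested genes. Its median was 1.86 over the 10 and 0.01 over all tested genes. In bulk samples such as these, a larger number of fibroblasts, more RNA per fibroblast and a different make-up of the dissected tissue cannot be told apart.

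With control library 2 left out, none of the 10 genes passed the adjusted threshold by edgeR. The smallest adjusted p was then 0.0766, and 6 genes remained at an unadjusted p under 0.05. The same 5 libraries gave 4 called genes with DESeq2 and 0 with limma voom. Over the whole table the count of higher genes went from 1474 to 56 with edgeR without that library, and it was then 1026 with DESeq2 and 3 with limma voom. The log2 fold changes of the 5 called genes moved little, to 2.21 for Dcn, 3.78 for Lum, 1.95 for Ogn, 2.68 for Postn and 1.45 for Mfap5.

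**Figure D1:**
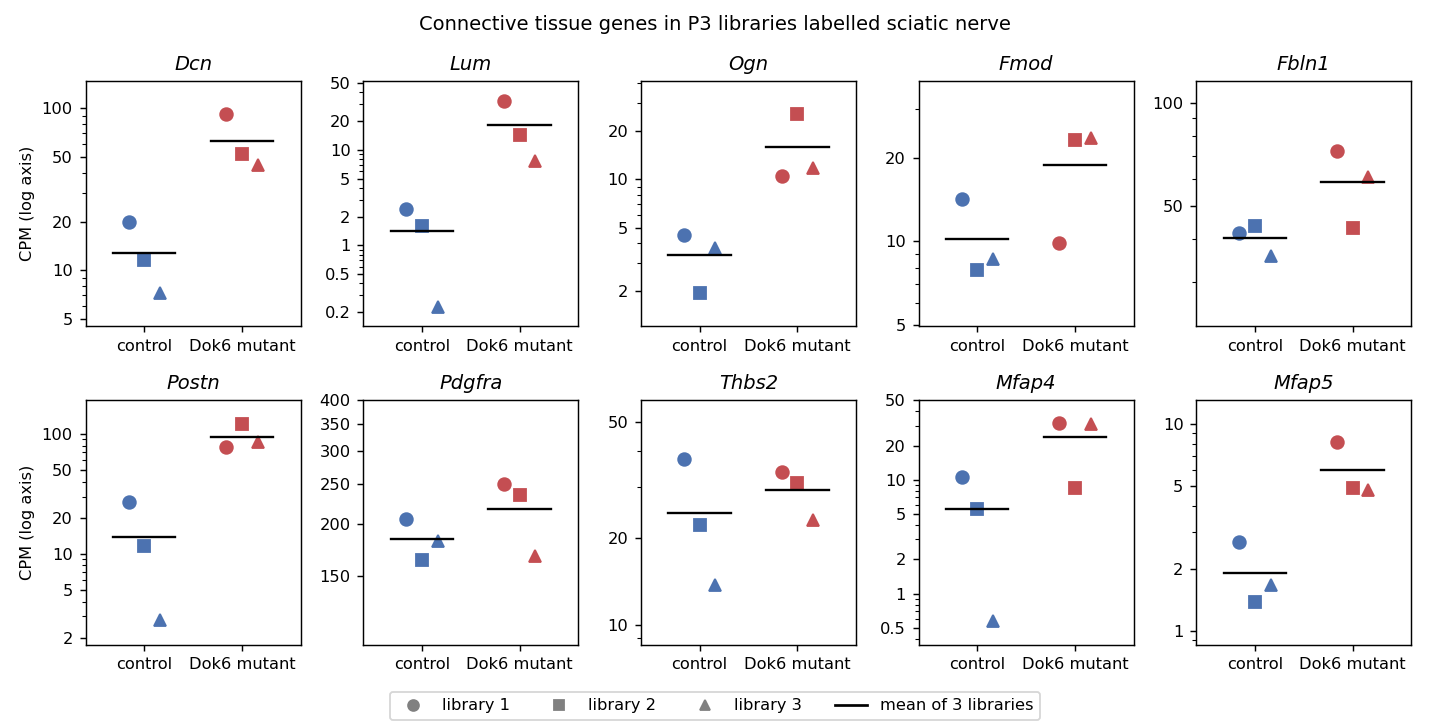
CPM of each of the 10 genes on a log axis, with 1 point per library, controls and Dok6 mutants in separate columns, and a bar at each group's mean. The groups do not overlap for Dcn, Lum, Ogn, Postn and Mfap5, and the controls span the widest range for Mfap4, Lum and Postn.

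Of the small leucine-rich proteoglycans, Dcn encodes decorin (ENSMUSG00000019929, GRCm38 chr10:97479609-97518143, plus strand), which binds fibrillar collagen and transforming growth factor beta. Dcn was at 19.8, 11.6 and 7.26 CPM in the controls and at 91.8, 52.0 and 44.4 CPM in the mutants. The lowest mutant library was 2.24 times the highest control. Mutants exceeded controls by 2.28 on the log2 scale (SE 0.38, 95% interval 1.42 to 3.15, adjusted p = 0.0125), a 4.87-fold difference, and it stayed between 1.90 and 2.74 when each library was left out in turn.

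Lum encodes lumican (ENSMUSG00000036446, chr10:97565128-97572703, plus strand), a keratan sulfate proteoglycan of collagen fibrils whose gene lies next to Dcn on chromosome 10. Lum was the gene with the largest difference of the 10, from 2.41, 1.61 and 0.229 CPM in the controls to 32.8, 14.1 and 7.58 CPM in the mutants. Control library 3 held 4 Lum counts, against 143 in the lowest mutant library, and the groups did not overlap. The difference was 3.68 on the log2 scale (SE 0.70, 95% interval 2.08 to 5.28, adjusted p = 0.0173). It ranged from 2.93 to 4.30 over the fits that left out a library.

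Ogn encodes osteoglycin, also called mimecan (ENSMUSG00000021390, chr13:49608046-49624501, plus strand). Its level was 4.53, 1.95 and 3.72 CPM in the controls and 10.6, 25.7 and 11.9 CPM in the mutants. Mutant library 2 was the highest, unlike for Dcn and Lum, for which mutant library 1 was the highest. The log2 fold change was 2.24 (SE 0.41, 95% interval 1.31 to 3.17, adjusted p = 0.0153), with 1.72 to 2.50 over the fits that left out a library. The call was also lost when the library number was added to the fit as a block (2.15, adjusted p = 0.0592).

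Fmod encodes fibromodulin (ENSMUSG00000041559, chr1:134037254-134048277, plus strand), which shares a collagen binding site with lumican and is abundant in tendon and cartilage. Fmod was at 14.2, 7.91 and 8.64 CPM in the controls and at 9.86, 23.2 and 23.7 CPM in the mutants. Mutant library 1 lay below control library 1, so the groups overlapped. The log2 fold change of 0.89 (SE 0.35, 95% interval 0.09 to 1.68) did not pass the test (adjusted p = 0.114). Over the 6 fits that left out a library it ranged from 0.69 to 1.20. It passed in 1 of them, without mutant library 1 (1.20, adjusted p = 0.0368). DESeq2 called it.

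Among the glycoproteins, Postn encodes periostin (ENSMUSG00000027750, chr3:54361109-54391037, plus strand), a matricellular protein made by fibroblasts of collagen-rich tissue. Postn was at 26.8, 11.7 and 2.80 CPM in the controls and at 78.1, 120.9 and 85.3 CPM in the mutants. The controls spread 9.56-fold from highest to lowest and the mutants 1.55-fold, and the lowest mutant was still 2.91 times the highest control. Its difference on the log2 scale was 2.78 (SE 0.59, 95% interval 1.44 to 4.13, adjusted p = 0.0224). It ranged from 2.30 to 3.71 over the fits that left out a library, and the call was also lost without mutant library 2 (2.57, adjusted p = 0.0588).

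Fbln1 encodes fibulin-1 (ENSMUSG00000006369, chr15:85205949-85286535, plus strand), a glycoprotein of basement membranes and elastic fibers. It was at 41.8, 43.9 and 35.9 CPM in the controls, the narrowest control spread of the 10 genes, and at 72.2, 43.3 and 60.6 CPM in the mutants. Mutant library 2 lay just below control library 2, and the other mutants lay above all controls. A log2 fold change of 0.54 (SE 0.18, 95% interval 0.13 to 0.94) did not pass the test (adjusted p = 0.0734). Over the 6 fits that left out a library it ranged from 0.36 to 0.71. It passed in 1 of them, without mutant library 2 (0.71, adjusted p = 0.0325). DESeq2 called it.

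Thbs2 encodes thrombospondin 2 (ENSMUSG00000023885, chr17:14665500-14694235, minus strand), a matricellular protein that limits vessel growth and affects collagen fibril assembly. Thbs2 was at 37.5, 22.1 and 13.7 CPM in the controls and at 33.7, 30.9 and 23.1 CPM in the mutants. Control library 1 lay above all mutants, and the groups overlapped over most of their range. Its log2 fold change was 0.26 (SE 0.32, 95% interval -0.46 to 0.98, adjusted p = 0.600), and without control library 3 its sign turned (-0.023, adjusted p = 0.960).

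The microfibril-associated genes differed in their spread. Mfap5 (ENSMUSG00000030116, chr6:122505845-122529290, plus strand) encodes a glycoprotein that binds fibrillin microfibrils. It was at 2.70, 1.38 and 1.66 CPM in the controls and at 8.20, 4.91 and 4.77 CPM in the mutants, with no overlap. On the log2 scale the difference was 1.64 (SE 0.33, 95% interval 0.89 to 2.39, adjusted p = 0.0197). The call was also lost without control library 3 (1.55, adjusted p = 0.0505) and without mutant library 1 (1.34, adjusted p = 0.0541).

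Mfap4 (ENSMUSG00000042436, chr11:61485431-61488900, plus strand) encodes a fibrinogen-domain protein of elastic fibers. It was at 10.7, 5.50 and 0.572 CPM in the controls and at 31.7, 8.56 and 30.8 CPM in the mutants. Its controls spread 18.7-fold, the widest of the 10 genes, and mutant library 2 lay within the control range. The log2 fold change of 2.09 (SE 0.76, 95% interval 0.35 to 3.83) did not pass the test (adjusted p = 0.0960). Exons of Mfap4 overlap exons of Mapk7 on the other strand, and whether the counting used strand is not given in the sources used here, so reads of these genes may not be told apart.

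The receptor Pdgfra (ENSMUSG00000029231, chr5:75152292-75198215, plus strand) was at 205.6, 163.4 and 181.9 CPM in the controls and at 250.2, 235.2 and 166.9 CPM in the mutants. Mutant library 3 lay below control libraries 1 and 3. The log2 fold change was 0.24 (SE 0.15, 95% interval -0.11 to 0.59, adjusted p = 0.300), so that a difference above 0.59 on the log2 scale lay outside the interval. Over the 6 fits that left out a library the log2 fold change ranged from 0.13 to 0.40. It passed in 1 of them, without mutant library 3 (0.40, adjusted p = 0.0398). Summed markers of oligodendrocyte precursors, which also use this receptor, were at 1074, 895.9 and 1273 CPM in the controls and 1499, 1639 and 893.6 CPM in the mutants, and mutant library 3 was the lowest of the mutants in both. Their part in the Pdgfra level was not tested. Pdgfra also overlaps Gm42802, Gm42803 and Mir7025, and Gm42802 is near-identical to it over part of its length, so the split of reads between these genes is uncertain.

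**Figure D2:**
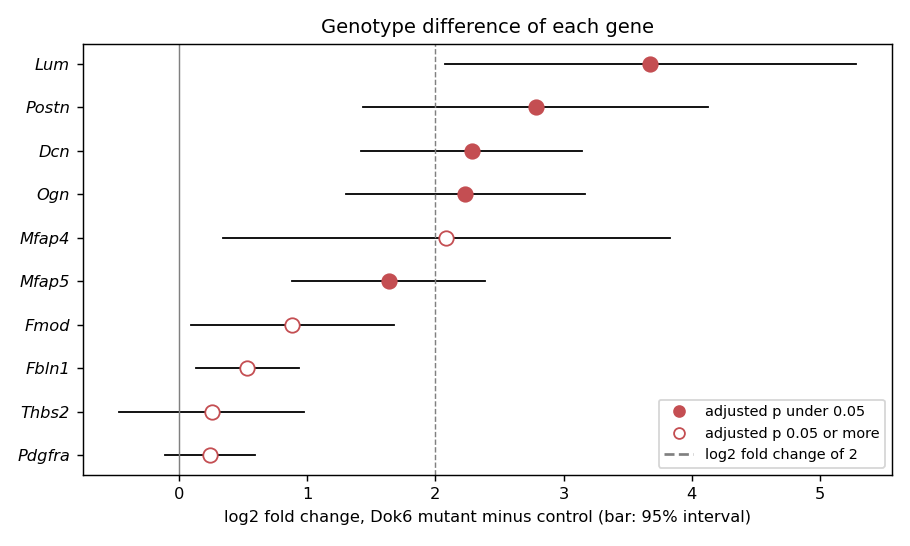
Log2 fold change, mutant over control, of the 10 genes with 95% intervals as bars, points filled where the adjusted p was below 0.05 and open otherwise, and a dashed line at a log2 fold change of 2. Lum has the largest value at 3.68, and the interval of Pdgfra, -0.11 to 0.59, and that of Thbs2, -0.46 to 0.98, include 0.

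Promoter windows of the genes are shown for Postn and Ogn, which were higher in the mutants, and for Pdgfra, which did not pass the test. The windows are from RefSeq (GRCm38.p6), run from 250 bases before to 50 bases after the start site, and are written on the strand of the gene. The table held 8 windows for 6 of the 10 genes, Fmod, Postn, Pdgfra, Ogn, Fbln1 and Thbs2, and the Postn window shown is the one at the start of the gene in GENCODE. No window was found for Dcn, Lum, Mfap4 and Mfap5 in the table used here. Both strands were searched for 3 motifs. The core promoter element spelled TATAAA occurred in 13.6% of all 32851 windows. The core motif of Fos and Jun factors, TGANTCA, occurred in 7.81% of them, and that of TEAD factors, GGAATG, in 14.7%. The capitals mark matches.
Postn, chr3:54360857-54361156, plus strand: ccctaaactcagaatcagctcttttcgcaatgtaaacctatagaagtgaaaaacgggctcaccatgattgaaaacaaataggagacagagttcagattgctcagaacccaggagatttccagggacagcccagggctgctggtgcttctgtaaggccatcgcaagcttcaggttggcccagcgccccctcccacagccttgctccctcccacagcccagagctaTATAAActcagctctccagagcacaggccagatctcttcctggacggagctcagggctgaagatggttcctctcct
Ogn, chr13:49607765-49608064, plus strand: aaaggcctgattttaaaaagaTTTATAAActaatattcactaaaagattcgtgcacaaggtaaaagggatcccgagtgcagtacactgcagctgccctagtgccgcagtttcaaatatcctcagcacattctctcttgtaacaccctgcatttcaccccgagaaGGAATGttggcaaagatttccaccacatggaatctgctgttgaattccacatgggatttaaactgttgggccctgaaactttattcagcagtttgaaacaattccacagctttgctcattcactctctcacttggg
Pdgfra, chr5:75152001-75152300, plus strand: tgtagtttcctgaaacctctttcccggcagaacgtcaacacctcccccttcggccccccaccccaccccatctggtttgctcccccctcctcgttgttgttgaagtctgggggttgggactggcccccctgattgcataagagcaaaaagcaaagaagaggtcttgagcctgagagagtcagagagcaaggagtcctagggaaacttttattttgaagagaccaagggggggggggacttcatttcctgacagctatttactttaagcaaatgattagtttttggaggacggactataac
The Postn window held TATAAA with its first base 26 bases before the start site. The Ogn window held overlapping TATAAA matches on both strands, 229 and 227 bases before the start, and GGAATG 86 bases before it. The Thbs2 window held TATAAA on its opposite strand, 126 bases before the start. No match to the 3 motifs lay in the windows of Pdgfra, Fmod and Fbln1, and TGANTCA was in none of the 8. The share of G and C was 53.0% in the Postn window, 42.3% in Ogn and 51.0% in Pdgfra, against a median of 52.7% over all windows. These matches describe letters in a window only.

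Per kilobase of gene length, Pdgfra had the highest level of the 10 genes in the controls at 18.3 ± 2.11 CPM per kb (SD, n = 3), followed by Fbln1 at 9.27 ± 0.950. From there the order ran Thbs2 at 3.49 ± 1.72, Fmod at 3.10 ± 1.04, Mfap4 at 2.90 ± 2.63, Dcn at 2.21 ± 1.09, Postn at 1.58 ± 1.39, Ogn at 1.32 ± 0.515, Lum at 0.578 ± 0.451 and Mfap5 at 0.532 ± 0.194. Of the 9 neighbouring pairs in that order, 7 had overlapping ranges, and only Pdgfra from Fbln1 and Fbln1 from Thbs2 were apart. In the mutants Pdgfra was again the highest at 21.7 ± 4.43 CPM per kb and Mfap5 the lowest at 1.66 ± 0.540. Between them came Fbln1 at 13.4 ± 3.33, Mfap4 at 12.3 ± 6.83, Postn at 10.9 ± 2.64, Dcn at 10.7 ± 4.36, Lum at 7.42 ± 5.34, Ogn at 6.25 ± 3.26, Fmod at 5.72 ± 2.38 and Thbs2 at 4.17 ± 0.790. The neighbouring ranges from Fbln1 down to Thbs2 overlapped, and those of Pdgfra and Mfap5 stood clear of their neighbours.

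**Figure D3:**
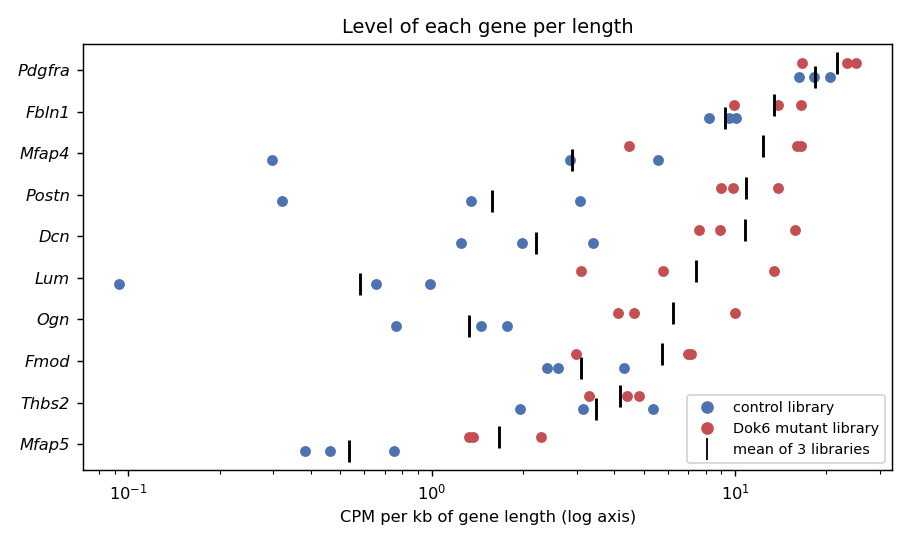
Level of each gene as CPM per kb on a log axis, with points for the libraries and the mean per genotype. Pdgfra is the highest in both genotypes, at 18.3 in controls and 21.7 in mutants, and Mfap5 the lowest, at 0.532 and 1.66.

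The control libraries differed more in these genes than in most genes. Among the 15656 tested genes with a mean of 1 CPM or more and no library at 0, the median ratio of the highest to the lowest control was 1.23, and it was 2.53 over the 10 genes. It exceeded 2 for 6 of the 10, Dcn, Lum, Ogn, Postn, Thbs2 and Mfap4, and for 7.68% of those genes. Lum (10.5), Postn (9.56) and Mfap4 (18.7) exceeded 4, as did 1.18% of those genes. Control library 1 was the highest control for 9 of the 10 genes, all but Fbln1, while it was the highest for 33.9% of all genes. Control library 3 was the lowest for 6 of the 10, Dcn, Lum, Fbln1, Postn, Thbs2 and Mfap4, against 36.8% of all genes, and control library 2 was the lowest for Ogn, Fmod, Pdgfra and Mfap5, against 29.1%. Dcn, Lum, Postn, Thbs2 and Mfap4, 5 of the 10, were highest in control library 1 and lowest in control library 3, against 21.1% of all genes. The 10 genes were read in the same libraries, so these counts are not independent of each other.

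The mutants spread less than the controls for 6 of the 10 genes, Dcn, Lum, Postn, Thbs2, Mfap4 and Mfap5, and more for the rest. The controls were likewise wider for 50.8% of all genes. The median ratio of the highest to the lowest mutant was 1.89 over the 10 genes and 1.22 over the 15656 genes, and it exceeded 2 for 5 genes, Dcn, Lum, Ogn, Fmod and Mfap4, against 8.28%. Mutant library 1 was the highest mutant for 7 genes, mutant library 2 for Ogn and Postn, and mutant library 3 for Fmod. No mutant library was therefore the highest or lowest for all 10.

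The other genes of the same matrix were read from lists of related genes. Of the 60 tested of 64, 22 were higher and 0 lower in the mutants, against 8.62% and 6.01% of all tested genes. Every mutant exceeded every control for 38 of the 60, against 19.6% of all tested genes. Their median log2 fold change was 0.95. At an unadjusted p under 0.05 the counts were 44 and 0, with DESeq2 35 and 0 and with limma voom 26 and 0. Without control library 2, edgeR called none of them higher, and 34 had an unadjusted p under 0.05. The count was 12 without mutant library 1 and 13 without mutant library 2. The called counts of the single lists below stand against the same 8.62% higher and 6.01% lower.

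The collagens, the fibrils on which decorin, lumican and fibromodulin sit, had 8 of 10 genes higher and a median log2 fold change of 1.69. Col6a3 was higher by 1.99 (SE 0.44, adjusted p = 0.0250) and Col1a2 by 1.96 (SE 0.50, adjusted p = 0.0360). Col1a1, the collagen with the highest level per kb, was at 2.65 (SE 0.78) and did not pass (adjusted p = 0.0537). The summed collagen level of the controls was 1293, 499.8 and 279.2 CPM, and was 2563, 3476 and 2277 CPM in the mutants.

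Of the other small leucine-rich proteoglycans 2 of 9 tested genes were higher. Aspn, which encodes asporin, rose by 2.80 on the log2 scale (SE 0.58, adjusted p = 0.0214). Bgn, which encodes biglycan, the closest relative of decorin, rose by 1.24 (SE 0.23, adjusted p = 0.0171). Of the other fibulins 3 of 6 were higher, among them Fbln5 by 1.94 (SE 0.31, adjusted p = 0.0121) and Fbln2 by 1.36 (SE 0.34, adjusted p = 0.0342). Fbln1, by contrast, did not pass, and the difference between these genes was not tested.

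Of the other matricellular genes 3 of 15 were higher, among them Tgfbi, a paralog of Postn, by 2.87 (SE 0.46, adjusted p = 0.0121) and Tnxb, which encodes tenascin X, by 1.90 (SE 0.28, adjusted p = 0.00992). Sparc, a collagen-binding protein and the highest of this list per kb, had a log2 fold change of 0.76 and did not pass (adjusted p = 0.0617). Of the other microfibril and elastic fiber genes 5 of 14 were higher, among them Emilin1 by 1.99 (SE 0.51, adjusted p = 0.0359) and Lox, the enzyme that cross-links collagen and elastin, by 1.81 (SE 0.44, adjusted p = 0.0316). Mfap2, the other microfibril-associated glycoprotein, was at 0.59 and did not pass (adjusted p = 0.139).

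Among the PDGF ligands and other receptors 1 of 6 genes was higher, Pdgfb, by 0.39 (SE 0.10, adjusted p = 0.0391), and a count of 1 in a list of this size is near the 8.62% called higher over all tested genes. Pdgfa, which encodes the main ligand of Pdgfra, was at 0.11 (adjusted p = 0.586).

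**Figure D4:**
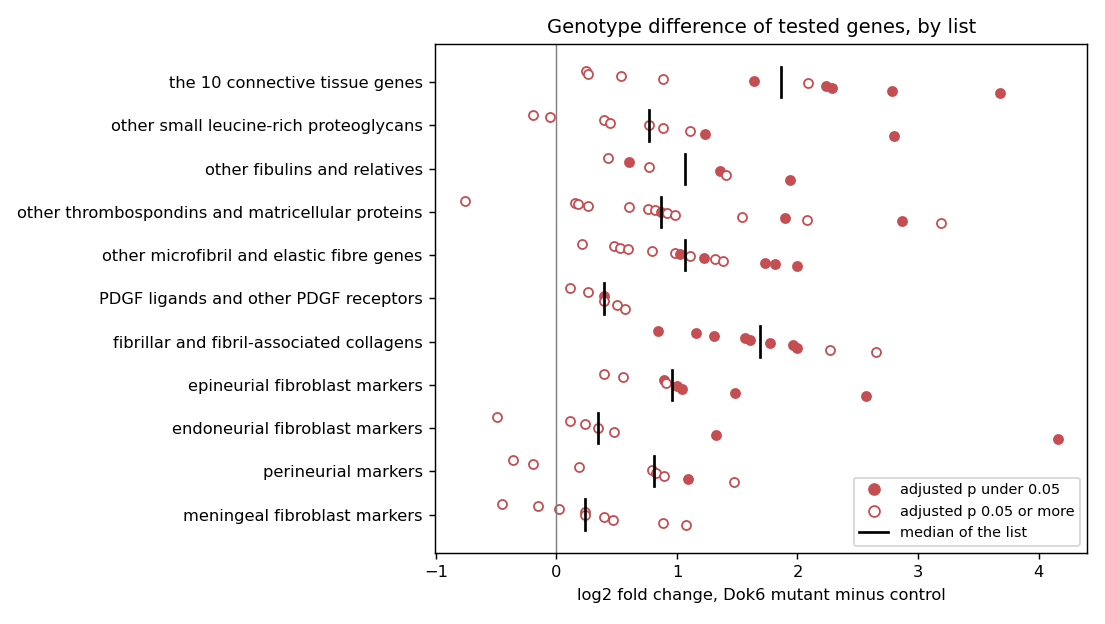
Log2 fold change, mutant over control, of each tested gene in the matrix and fibroblast lists, filled where the adjusted p was below 0.05, with the median of each list as a black bar and the 10 genes on top. The median is 1.86 for the 10 genes, 1.69 for the collagens, 0.34 for endoneurial markers and 0.24 for meningeal markers.

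Markers of the fibroblast layers were read beside the 10 genes. Of the epineurial fibroblast markers 5 of 8 were higher, among them Dpt, which encodes dermatopontin, by 2.57 (SE 0.63, adjusted p = 0.0324) and Igfbp6 by 1.48 (SE 0.34, adjusted p = 0.0278). Clec3b, the highest of them per kb, was at 0.39 and did not pass (adjusted p = 0.196). Their summed level was 37.7 to 49.2 CPM in controls and 74.7 to 90.3 CPM in mutants. Of the endoneurial markers 2 of 7 were higher, Abca8a by 4.16 (SE 0.64, adjusted p = 0.0104) and Abca9 by 1.32 (SE 0.36, adjusted p = 0.0430), with sums of 130.7 to 152.0 and 164.1 to 197.0 CPM. Cdkn1c, the highest of that list per kb, was at 0.24 and did not pass (adjusted p = 0.247). Sox9 lay below every control in every mutant, at -0.49 on the log2 scale, and did not pass (adjusted p = 0.178). The perineurial list had 1 of 8 higher, near the share over all tested genes, Crispld1, by 1.09 (SE 0.21, adjusted p = 0.0184), and its sums overlapped at 221.0 to 298.5 and 214.0 to 320.0 CPM. DESeq2 called 3 of this list higher and 1 lower, and limma voom 1 and 0. At an unadjusted p under 0.05, 3 were higher and 1 was lower. Tenm2 lay below every control in every mutant, at -0.36 on the log2 scale (adjusted p = 0.0922). Slc2a1, which encodes a glucose transporter and was the highest perineurial marker per kb, was at 0.18 (adjusted p = 0.765). None of the 9 meningeal fibroblast markers was called in either direction by edgeR or limma voom, while DESeq2 called 1 lower and 1 was lower at an unadjusted p under 0.05. The highest per kb, Ptgds, was at 0.24 (adjusted p = 0.804). The meningeal sums overlapped at 389.2 to 460.2 and 279.6 to 453.2 CPM. Of the tendon, cartilage and bone markers 1 of 9 was higher, also near that share, Cnmd, by 3.26 (SE 0.66, adjusted p = 0.0200), with sums of 28.1 to 46.2 and 33.1 to 136.3 CPM. DESeq2 called 2 of them and limma voom 0, and Scx, a tendon transcription factor and the highest of them per kb, was at -0.085 (adjusted p = 0.776).

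Marker sums of other tissues also differed between the genotypes. The summed level of the 10 genes without Pdgfra was 160.3, 107.6 and 74.5 CPM in the controls and 368.9, 323.6 and 292.1 CPM in the mutants. Skeletal muscle markers were at 28.7, 28.5 and 18.4 CPM and at 699.0, 380.5 and 136.1 CPM, and 10 of 10 tested were higher (10 with DESeq2, 6 with limma voom). Sensory ganglion neuron markers were at 216.0, 156.9 and 171.8 CPM and at 368.5, 989.6 and 926.3 CPM, and 9 of 10 were higher (10 with DESeq2, 8 with limma voom). Schwann cell markers were at 142.9, 96.0 and 157.1 CPM and at 403.5, 3888 and 257.4 CPM, with mutant library 2 far above the rest. Of these markers 6 of 10 were higher by edgeR, 5 by DESeq2 and 0 by limma voom. Sox10, which is also on the oligodendrocyte precursor list, was at 63.4, 42.2 and 107.7 CPM in the controls and at 91.3, 144.1 and 49.4 CPM in the mutants.

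The summed level of endothelial markers was 182.6 to 294.6 CPM in the controls and 318.9 to 442.9 CPM in the mutants, and 4 of 8 were higher (5 with DESeq2, 4 with limma voom). The sum of pericyte and smooth muscle markers was 188.9 to 249.3 and 269.3 to 573.5 CPM, and 2 of 8 were higher (4 with DESeq2, 1 with limma voom). Within each of these lists every mutant exceeded every control for 4 of the 8 genes, against 19.6% of all tested genes. Tagln lay below every control in every mutant (-0.90 on the log2 scale, adjusted p = 0.189). The highest pericyte and smooth muscle sum was that of mutant library 1, in which Acta2 was at 114.3 CPM and Myh11 at 85.7 CPM, against 6.55 and 4.85 CPM in mutant library 2 and 13.9 and 5.30 CPM in mutant library 3. Of the 6 adipocyte markers only Fabp4 had enough reads to be tested, and it was higher (also with DESeq2, not with limma voom). The sum of the 6 was 0.343 to 1.03 CPM in the controls and 1.22 to 8.87 CPM in the mutants. Most of the mutant sums was Fabp4, at 8.56, 4.85 and 0.848 CPM. No oligodendrocyte precursor marker was called (1 of 10 higher at an unadjusted p under 0.05, 0 with DESeq2 and limma voom). Of the 13 central nervous system markers 1 was lower, near the 6.01% of all tested genes. It was Slc32a1, which fell by 0.32 (adjusted p = 0.0487). DESeq2 called 2 of the 13 lower and limma voom 0. The part of a different make-up of the dissected tissue in the levels of the 10 genes was not tested.

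**Figure D5:**
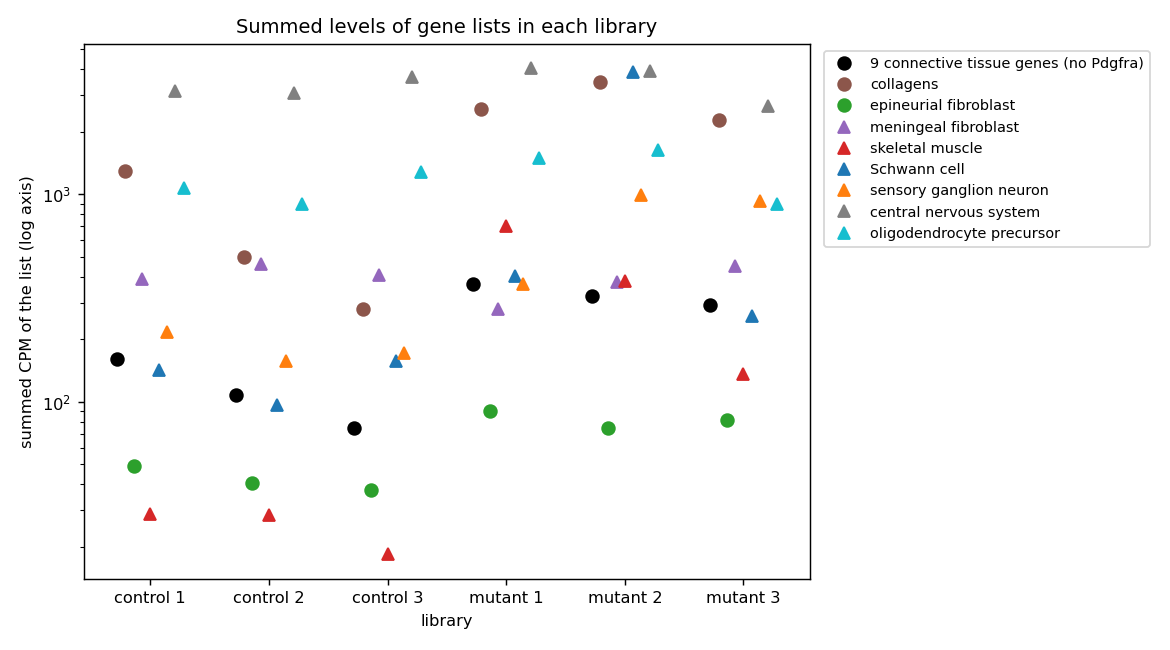
Summed CPM of marker lists in the 6 libraries on a log axis, with circles for the 9 matrix genes without Pdgfra, the collagens and the epineurial markers and triangles for the other cell types, set side by side within a library. The 9 genes sum to 74.5 to 160.3 CPM in controls and 292.1 to 368.9 CPM in mutants, and muscle markers to 18.4 to 28.7 and 136.1 to 699.0 CPM.

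The genes whose profile over the 6 libraries was most like the median profile of the 10 were found by the root mean square difference of centred log2 CPM values over 15666 genes, whose median was 0.749. Lgals1, which encodes galectin-1, was the nearest at 0.0860, with 23.4, 14.6 and 14.9 CPM in the controls and 51.2, 48.6 and 46.8 CPM in the mutants. Next came Arsi (0.114), a sulfatase gene, S1pr2 (0.125), a sphingosine phosphate receptor, Col27a1 (0.137), a fibrillar collagen, and Serpinh1 (0.138), the collagen chaperone of the endoplasmic reticulum. Serpinh1 was at 86.4, 51.7 and 58.5 CPM in the controls and at 159.9, 180.8 and 158.9 CPM in the mutants. Of the 10 genes themselves, Mfap5 lay nearest the median profile at 0.181 and Postn and Lum were the farthest, each at 1.19, so that the median profile described some of the 10 much better than others.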

How the data were processed

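RNA-seq libraries of 6 P3 samples (3 controls, 3 Dok6 mutants) were sequenced by the authors on an Illumina instrument. The kit is named as non-directional in the labels and as directional in the study's methods. The authors deposited 1 table of raw read counts per gene for all samples. The build is mm10 in the submitters' processing notes, and the aligner and counter are not given in the sources used here. The study's methods used DESeq2 and a log2 fold change above 2.

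Samples were grouped by the genotype label. Counts were filtered with filterByExpr, scaled by TMM and fitted in R 4.3.3 with edgeR 4.0.16 (quasi-likelihood test, all 6 libraries, Benjamini-Hochberg adjustment over 17099 genes, threshold 0.05). The fit was tested on simulated data. DESeq2 1.42.0, limma voom 3.58.1, other scalings and filters, a replicate block and leaving out each library were alternatives. The study's methods call the libraries of a genotype biological replicates. Depth was 17699904 to 18678170 counts. An exact permutation test of 3 against 3 libraries cannot go below 0.1 and was not used. Gene positions were from GENCODE M21 (GRCm38), near-identical transcripts (95% identity over 200 bases) from BLAST 2.17.0, and promoters from RefSeq. Profiles used log2(CPM + 0.5).

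The members and lists were chosen with earlier results of these data known. Genes named beside the 10 were, in each list, the 2 called genes with the largest change and the gene with the highest CPM per kb, Dok6, and the 5 genes with the most similar profile. Tenm2, Sox9, Sox10, Tagln, Acta2, Myh11 and Mog fall outside this rule and were named after their values were seen. For markers of other cell types mostly sums and counts are given.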

Additional observations from a re-analysis of the deposited data

How the results depend on the processing

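The count of called members was also 5 with RLE scaling, upper quartile scaling and limma voom, and 5 passed when a log2 fold change of 1 was required. It was 7 with DESeq2 and 8 with no filter, which added Fmod, Fbln1 and Mfap4. Leaving out each library gave 0 to 6 called members, 0 to 4 past a log2 fold change of 2, 0 to 30 other matrix genes higher and 0 to 1 lower (1 without control library 3), and 56 to 1671 genes higher and 12 to 1233 lower over the whole table, with the lowest counts without control library 2. Without mutant library 2, 2 members passed a log2 fold change of 2. For the 64 other matrix genes DESeq2 called 35 and no filter 40, against 22. Settings chosen after seeing the data combined another tool with leaving out control library 2. There DESeq2 gave 2 members past a log2 fold change of 2, 13 other matrix genes and 637 genes lower, and limma voom gave 0 members, 0 past a log2 fold change of 2 and 0 other matrix genes, with 3 genes higher and 2 lower over the table. The log2 fold change of Thbs2 ran from -0.023 without control library 3 to 0.71 without control library 1. The cause of these changes was not tested. With the replicate block 4 members were called, and Ogn was not (2.15, adjusted p = 0.0592), 15 other matrix genes were higher, and 432 genes were higher and 130 lower over the table. Whether equal numbers mark mice of the same litter is not stated in the sources used here. Deviations of same-numbered libraries from their group means correlated at -0.00743, -0.193 and -0.272, and those of other number pairs at -0.0820 to 0.252. With 3 libraries per genotype these values cannot decide it. A filter of 10 counts in every library left Lum without a value, since control library 3 held 4 of its counts. With 3 libraries per genotype, and controls that spread 18.7-fold for Mfap4, its interval ran from 0.35 to 3.83 on the log2 scale.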
